A study of Mus musculus with 20 samples.

Results

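The 8 genes described here encode 7 receptors through which hormones reach bone cells and 1 enzyme, Hsd11b1, that makes an active hormone inside the cell. They were chosen by symbol, with earlier results of these data known. In the authors' filtered expression table they account for 13 of 12440 probe sets and for 8 of the 9129 genes tested. Ghr had 3 probe sets, Esr1, Nr3c1 and Thra had 2 each, and Pth1r, Vdr, Hsd11b1 and Insr had 1 each. The cells came from collagenase-digested bones of untreated male wild-type C57BL6 mice aged 8 weeks. Sorting by FACS kept cells without blood lineage markers (Lin-), without the endothelial marker CD31 and with CD51, the integrin alpha-v chain. These were divided by Sca-1 and the PDGF receptors PDGFRa and PDGFRb into 5 groups of 4 arrays each. By the labels of the sort, SL cells were Sca-1lo and PDGFRa-, and the other groups were all Sca-1-. AB cells were PDGFRa+ and PDGFRb+, B cells were PDGFRa- and PDGFRb+, and A cells were PDGFRa+ and PDGFRb-. DN cells were PDGFRa- and are negative for both receptors by their code, because the sample titles of DN and SL leave the sign of the PDGFRb gate unclear. The labels do not say whether replicates came from separate animals or sorts, so every p-value measures only the spread between these arrays, which may be technical.

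Hormones act on bone through receptors of 2 kinds. Esr1, Vdr, Nr3c1 and Thra encode nuclear receptors, which bind estrogen, the active form of vitamin D, glucocorticoids and thyroid hormone and then act on genes as transcription factors. Pth1r, Ghr and Insr encode receptors of the cell surface. The Pth1r protein binds parathyroid hormone and its relative PTHrP and signals mainly through cyclic AMP. Ghr works through the kinase Jak2 and Stat5 proteins, and Insr is a tyrosine kinase. Hsd11b1 encodes 11-beta-hydroxysteroid dehydrogenase type 1, which in cells turns inert 11-keto steroids back into active glucocorticoid, so it sets how much ligand reaches the glucocorticoid receptor. Osteoblasts and their precursors are known targets of all of these hormones.

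Levels are given as log2 array signal, and differences as the first group minus the second with the SE of limma's model over all 20 arrays and an adjusted p (Benjamini-Hochberg over 9129 genes, threshold 0.05). A probe set's signal depends on its own probes, so no gene's level is set against another's. Where arrays of a pair are said not to overlap, this only describes that gene. The share of all genes without overlap was not counted, so it may be common. Of 17 mature osteoblast genes, 15 were in the filtered table, among them Col1a1, which encodes the main bone collagen and averaged between 12.74 and 13.07 in the 5 groups, and Alpl, which encodes the bone alkaline phosphatase and averaged between 11.04 and 11.97. Some arrays went against their gates. Ly6a, which encodes Sca-1, read 10.79, 10.30, 10.54 and 10.42 in SL, 7.09, 7.24, 8.72 and 10.05 in AB, 7.01, 7.10, 10.18 and 10.90 in B, 8.03, 7.25, 7.45 and 8.15 in A, and 7.27, 7.03, 7.54 and 8.28 in DN (replicates 1 to 4). Replicates 3 and 4 of AB and B, gated as Sca-1-, thus lay above every A and DN array. Pdgfra, the transcript of PDGFRa, read 10.34, 10.19, 10.32 and 10.10 in SL, 9.77, 9.80, 9.78 and 9.54 in AB, 8.63, 8.76, 9.19 and 9.54 in B, 8.97, 8.95, 9.15 and 8.96 in A, and 7.50, 7.75, 8.16 and 8.05 in DN. All SL arrays, gated as PDGFRa-, thus lay above all AB and A arrays, gated as PDGFRa+, and the B mean of 9.03, also gated as PDGFRa-, was next to the A mean of 9.01. Of the 3 PDGFRa- groups, only DN had all its arrays below those of AB and A, so the group names stand for the sort and not for the Pdgfra transcript. The neutrophil list, with 15 of 18 genes measured, was scored as the mean of its genes after each was centred over the arrays, and lay between -0.79 and 0.22 in SL, -0.43 and 0.89 in AB, 0.17 and 1.25 in B, -0.35 and 0.54 in A and -0.96 and 0.30 in DN. The arrays carry no detection calls here, so no marker can be called absent. Results were therefore also computed with the neutrophil score as a covariate and with AB and B from replicates 1 and 2 alone. In the latter setting SL, A and DN kept all 4 arrays, so replicates were not matched between groups. In bulk samples such as these, fewer cells of a type and less RNA per cell cannot be told apart.

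Across the 5 groups, 7 of the 8 genes differed by limma's moderated F test (adjusted p between 2.14e-07 for Pth1r and 0.0195 for Nr3c1), where 50.6% of all genes tested did. Insr was the exception (adjusted p = 0.643). The spread between the highest and the lowest group mean was 8.1-fold for Hsd11b1, 4.19-fold for Vdr, 2.31-fold for Pth1r, 2.23-fold for Ghr, 1.8-fold for Esr1, 1.43-fold for Thra, 1.23-fold for Nr3c1 and 1.12-fold for Insr. Among the 8 genes only Pth1r, Ghr and Thra separated SL, AB and B from A and DN. Between B and A, 29.7% of all genes differed. The plot of each gene's arrays shows Pth1r lower and Ghr and Thra higher on the side of SL, AB and B, Esr1 high in SL and AB, and Hsd11b1 and Vdr set apart in SL.

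**Figure D1:**
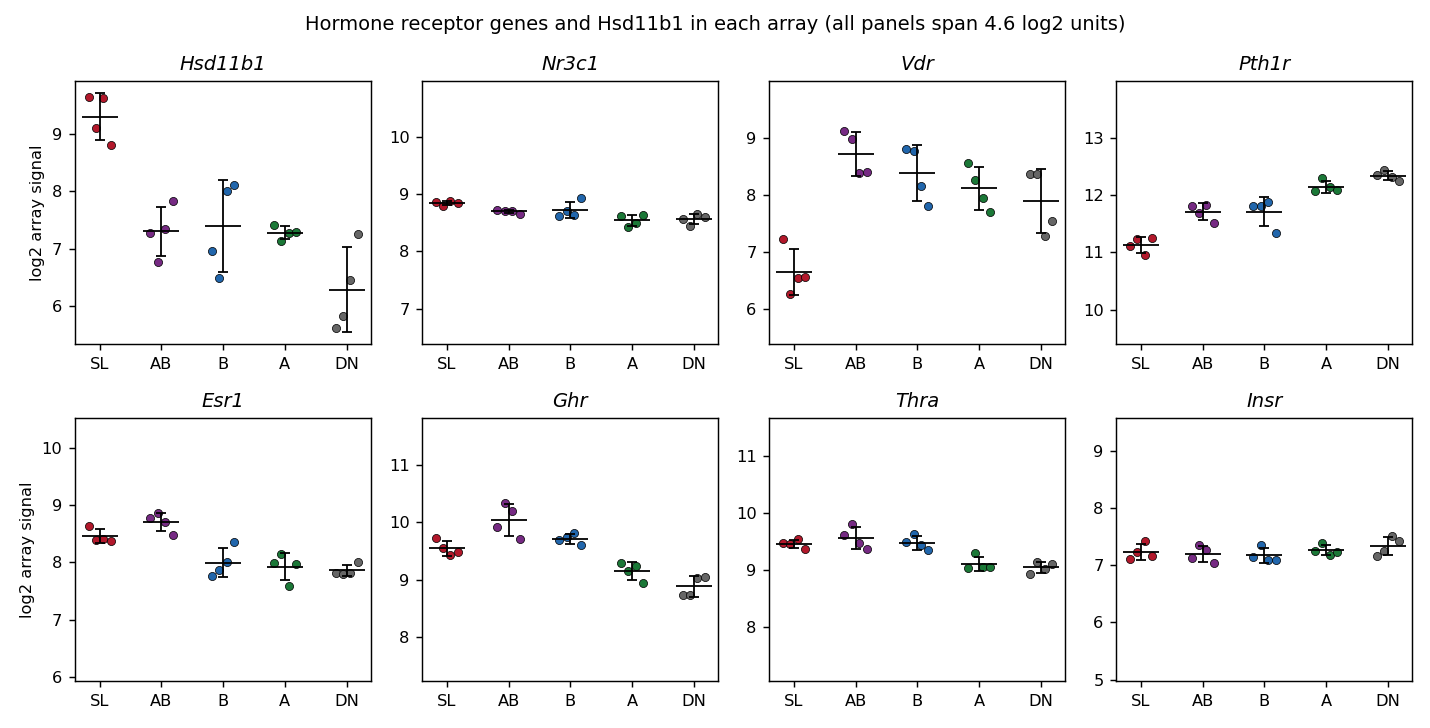
Log2 array signal (vertical axes) of the 8 genes in each of the 20 arrays, with groups SL, AB, B, A and DN along the horizontal axes; points are arrays in order of replicate number, long bars are group means and whiskers are SD (n = 4). All panels span the same number of log2 units, so the 4 SL arrays of Hsd11b1, from 8.81 to 9.65, and those of Vdr, from 6.26 to 7.22, can be compared in distance from their other groups, while Insr stays within 7.04 and 7.51.

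SL against DN changed 7 of the 8 genes, against 45.2% of all genes. Hsd11b1, Ghr, Esr1, Thra and Nr3c1 were higher in SL, and Vdr and Pth1r were lower. SL against A changed the same 7 genes in the same directions, against 32.6% of all genes. AB against DN changed 6 genes (46.1% of all genes), with Ghr, Hsd11b1, Esr1, Vdr and Thra higher and Pth1r lower, and AB against A changed 4 (32.9%), with Ghr, Esr1 and Thra higher and Pth1r lower. B against DN changed 4 genes (45.7%), with Hsd11b1, Ghr and Thra higher and Pth1r lower, and B against A changed 3 (29.7%), the same without Hsd11b1. These counts for B lay near the share of all genes. SL against B changed 4 genes (12.5%), with Hsd11b1 and Esr1 higher and Vdr and Pth1r lower. SL against AB also changed 4 (9.34%), with Hsd11b1 higher and Vdr, Pth1r and Ghr lower. AB against B changed Esr1 alone among the 8 (1.52% of all genes, or 139 genes, and 321 in a fit with replicate number as block). A against DN changed none of the 8 (3.53% of all genes). Before adjustment Hsd11b1 and Ghr were under 0.05 there in limma's fit, with adjusted p = 0.145 and adjusted p = 0.302. The share of all genes under 0.05 before adjustment was not counted. Comparisons that share a group share its arrays, so their values are not independent. Counts of genes in the lists below are to be read beside the same shares of all genes. These were 50.6% for the F test, 45.2% for SL against DN and 46.1% for AB against DN.

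**Figure D2:**
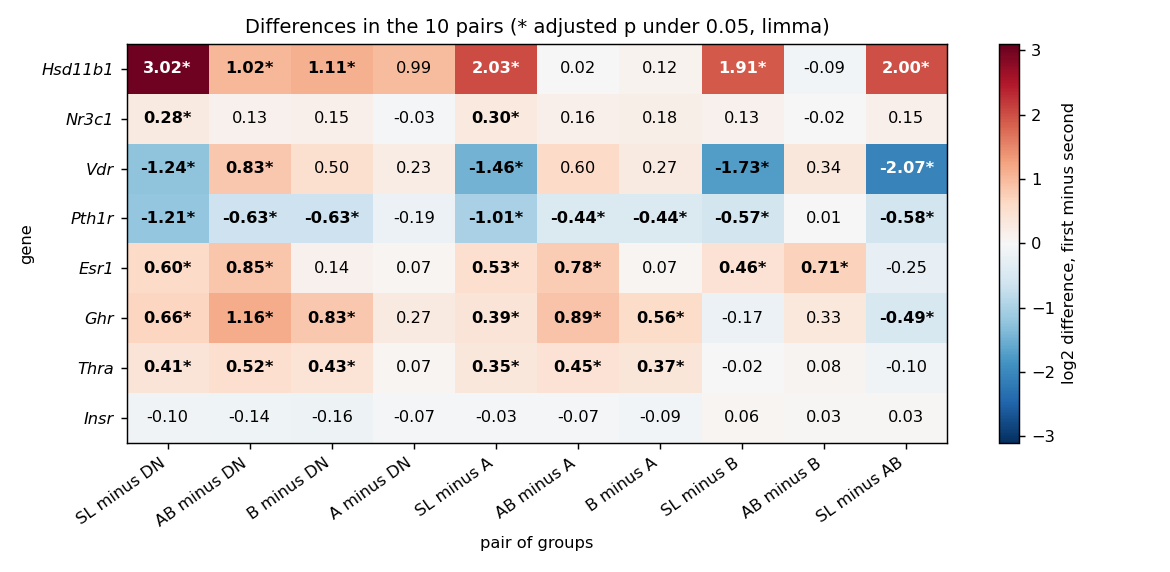
Log2 differences of the 8 genes (rows) in the 10 pairs of groups (columns, first group minus second), coloured from blue (lower in the first group) to red (higher), with an asterisk where limma's adjusted p was under 0.05. The darkest cells are Hsd11b1 in the 4 pairs with SL, from 1.91 to 3.02, and Vdr in the same pairs, from -2.07 to -1.24, and the Insr row holds no asterisk.

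Hsd11b1 (chromosome 1, 193221634 to 193264075 in the authors' comparison tables, as for the genes below, with no build named there) had the widest range among the 8 genes. It is shown with the 250 bases before a start that RefSeq places inside the gene, because no other member differed as much between groups. The window lies at chr1:193242361-193242610 on the minus strand of GRCm38.p6, is written along the gene and comes from RefSeq. Capitals mark the CCAAT box.
Hsd11b1: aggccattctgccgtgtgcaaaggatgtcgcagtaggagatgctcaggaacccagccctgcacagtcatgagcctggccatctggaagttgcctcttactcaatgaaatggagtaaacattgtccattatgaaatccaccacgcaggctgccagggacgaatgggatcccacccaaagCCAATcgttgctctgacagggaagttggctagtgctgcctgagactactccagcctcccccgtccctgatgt
The window was searched on both strands for the letters TATAAA of the TATA box, for the letters CCAAT of the CCAAT box, for GGGCGG, known as the GC box, and for TGTGGT, the core of a RUNX site. It held 1 CCAAT box and no other match. Of all 32851 RefSeq windows of this length, 12.4% hold the TATA box, 33.8% the CCAAT box, 32.7% the GC box and 14.0% the RUNX core.

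Hsd11b1 read 9.65, 9.11, 9.64 and 8.81 in SL, against 5.61, 5.83, 6.45 and 7.26 in DN. All SL arrays lay above all DN arrays, and also above every array of the other 3 groups. The SL mean of 9.30 ± 0.41 (SD, n = 4) exceeded the DN mean of 6.29 ± 0.74 by 3.02 ± 0.35 (adjusted p = 7.69e-07). On the linear scale the means were 632 in SL and 78 in DN, an 8.1-fold ratio of signals. Whether the DN signal was above background is not known, so that ratio is no exact measure of the transcript. SL exceeded A by 2.03 ± 0.35 (adjusted p = 0.000162), B by 1.91 ± 0.35 (adjusted p = 0.00101) and AB by 2.00 ± 0.35 (adjusted p = 0.000762). The 3 groups between were close to each other. AB read 7.28, 6.76, 7.34 and 7.83, with a mean of 7.30 ± 0.44. B read 6.96, 6.49, 8.01 and 8.12, with a mean of 7.39 ± 0.80, and A read 7.42, 7.14, 7.27 and 7.28, with a mean of 7.28 ± 0.12. Neighbours in this order differed by at most 0.12 log2 units, with 95% intervals of -0.62 to 0.85 for B minus A and -0.83 to 0.65 for AB minus B.

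The lower steps of the Hsd11b1 order were less firm. B exceeded DN by 1.11 ± 0.35 (adjusted p = 0.0147) and AB exceeded DN by 1.02 ± 0.35 (adjusted p = 0.0233), with arrays that overlapped in both pairs. A exceeded DN by 0.99 ± 0.35 without passing (adjusted p = 0.145), and passed without DN replicate 4 (1.32, adjusted p = 0.0368). The high Hsd11b1 arrays of B were replicates 3 and 4, in which Ly6a and the neutrophil score were also high. With replicates 1 and 2 alone for B and AB, B minus DN was 0.44 (adjusted p = 0.349) and AB minus DN 0.73 (adjusted p = 0.111). DN kept all 4 arrays there, and its replicates 3 and 4 (6.45 and 7.26) lay above its replicates 1 and 2 (5.61 and 5.83). These 2 values thus do not compare matched replicates, and rest on 2 arrays each of B and AB. With the neutrophil score as a covariate, B minus DN was 0.37 (adjusted p = 0.5) and AB minus DN 0.71 (adjusted p = 0.0728). B minus DN also failed without B replicate 3, B replicate 4 or DN replicate 1 (0.90, 0.87 and 0.88, adjusted p 0.0587 to 0.0594). AB minus DN failed without AB replicate 4, DN replicate 1 or DN replicate 2 (0.84, 0.79 and 0.86, adjusted p 0.0732 to 0.0888). The SL differences passed in each of these settings. A list of 13 Sca-1-positive fibroblast genes, 11 of them measured, was also highest in SL, with scores of 1.08 to 1.52, against -0.47 to 0.98 in AB, -0.72 to 1.30 in B, -0.78 to -0.23 in A and -1.58 to -0.86 in DN. This list includes Ly6a, the gene of the Sca-1 gate, so a high SL score was in part set by the sort. Of its measured genes 10 were higher in SL than in DN. Pcolce2, named after its value was seen, was not called and averaged 11.02 in SL and 12.05 in DN. An endothelial list, with 4 of 12 genes measured, scored 0.37 to 1.07 in SL, -0.23 to 0.21 in AB, -0.27 to 0.58 in B, -0.65 to -0.01 in A and -0.77 to 0.05 in DN. Of its genes Tek and Eng were higher in SL than in DN, by 2.85 ± 0.49 (adjusted p = 8.75e-05) and 0.74 ± 0.13 (adjusted p = 0.000104). Its other measured genes were not called there. Pecam1, which encodes CD31, averaged 6.80 in SL and 6.36 in DN, and Egfl7 averaged 7.20 and 7.17. These endothelial genes were named after their values were seen. The part of either list in the Hsd11b1 result was not tested.

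Nr3c1 encodes the glucocorticoid receptor and lies on chromosome 18. Its brighter probe set read 8.87, 8.79, 8.88 and 8.85 in SL, against 8.56, 8.45, 8.66 and 8.61 in DN, and all SL arrays lay above all DN arrays. The difference of 0.28 ± 0.08 (adjusted p = 0.00827) was 1.21-fold, small beside that of Hsd11b1. SL exceeded A, which read 8.61, 8.43, 8.50 and 8.64, by 0.30 ± 0.08 (adjusted p = 0.00673). AB averaged 8.70 ± 0.03 and B 8.72 ± 0.14, and neither passed against SL, A or DN. The second probe set gave another order of calls. It was higher than in DN by 0.61 ± 0.16 in SL (adjusted p = 0.00389), 0.53 ± 0.16 in AB (adjusted p = 0.0107) and 0.52 ± 0.16 in B (adjusted p = 0.012), while SL minus A was 0.25 ± 0.16 (adjusted p = 0.251). Both probe sets thus called 1 of the 4 pairs that either called, SL against DN. With their mean in place of the brighter one, AB minus DN was 0.33 (adjusted p = 0.00979) and B minus DN 0.34 (adjusted p = 0.0089).

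Of 23 other genes of glucocorticoid action, 20 were measured and 11 passed the F test. In SL against DN 3 were higher, H6pd, Mt1 and Serping1, and 3 were lower, Dusp1, Sgk1 and Errfi1, with a list median of 0.01 beside 0.01 for all genes. H6pd makes the NADPH that the Hsd11b1 enzyme uses in the endoplasmic reticulum. In SL it exceeded DN by 0.71 (adjusted p = 0.000139), A by 0.61 (adjusted p = 0.00108) and B by 0.65 (adjusted p = 0.00195), and in AB it exceeded DN by 0.62 (adjusted p = 0.000526). H6pd thus was high in AB, where Hsd11b1 was near its level in A. Serping1, which encodes the complement C1 inhibitor, was higher than in DN by 2.46 in SL (adjusted p = 1.8e-11) and by 2.57 in AB (adjusted p = 9.37e-12). Serping1 had been listed as a marrow stromal reticular gene too. Dusp1, which encodes a phosphatase of MAP kinases and is a known glucocorticoid target, was lower than in DN, with differences of -0.29 in SL (adjusted p = 0.024) and -0.72 in AB (adjusted p = 5.75e-06). Errfi1, an inhibitor of the EGF receptor, differed by -0.68 in SL against DN (adjusted p = 2.5e-05). H6pd, Mt1 and Sgk1 were named after their values were seen.

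Vdr (chromosome 15, 97854425 to 97910630) encodes the vitamin D receptor, and its transcript was lowest in SL. The 250 bases before its RefSeq start, at chr15:97908297-97908546 on the minus strand of GRCm38.p6, are shown because Vdr and Pth1r were the members lower in SL than in every other group. Capitals mark GC boxes.
Vdr: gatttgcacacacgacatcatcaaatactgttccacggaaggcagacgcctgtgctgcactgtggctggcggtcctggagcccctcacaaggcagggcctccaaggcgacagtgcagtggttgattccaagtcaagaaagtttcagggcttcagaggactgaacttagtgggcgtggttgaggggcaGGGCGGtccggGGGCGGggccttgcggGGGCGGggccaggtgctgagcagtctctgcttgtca
The window held 3 GGGCGG matches and none of the other 3 motifs. Its GC content was 61.2% and it held 11 CpG, against medians of 52.4% and 6 over all RefSeq windows.

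Vdr read 7.22, 6.26, 6.54 and 6.57 in SL, against 8.36, 8.36, 7.28 and 7.53 in DN. The highest SL array lay just below the lowest DN array. The SL mean of 6.65 ± 0.41 was below the DN mean of 7.88 ± 0.56 by a difference of -1.24 ± 0.29 (adjusted p = 0.00146), a 2.36-fold ratio of signals. With a linear mean of 100 in SL and no detection calls, it is not known whether that signal was above background. SL also lay below A (-1.46 ± 0.29, adjusted p = 0.000521), B (-1.73 ± 0.29, adjusted p = 0.000356) and AB (-2.07 ± 0.29, adjusted p = 6.52e-05), with no overlap of arrays. These 4 differences passed in every setting run. The mature osteoblast list, with 15 genes measured, was likewise lowest in SL, with scores of -0.90 to -0.78, against -0.03 to 0.28 in AB, -0.24 to 0.13 in B, 0.34 to 0.70 in A and 0.01 to 0.23 in DN. Of its genes 9 were lower in SL than in DN and 3, Col1a1 among them, were higher, where 45.2% of all genes differed. The part of this list in the Vdr result was not tested.

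Among the Sca-1- groups Vdr was highest in AB. AB read 9.12, 8.97, 8.38 and 8.39, B read 8.80, 8.77, 8.15 and 7.80, and A read 8.56, 8.26, 7.94 and 7.69. In AB, B, A and DN alike, replicates 1 and 2 lay above replicates 3 and 4. Among all genes 71 (0.778%) had that pattern and 64 (0.701%) the opposite one, and none of the other 7 members had either. AB exceeded DN by 0.83 ± 0.29 (adjusted p = 0.0222), a call that failed without AB replicate 1, AB replicate 2, DN replicate 3 or DN replicate 4 (0.63 to 0.75, adjusted p 0.0609 to 0.0906). AB minus A was 0.60 ± 0.29 and did not pass (adjusted p = 0.116). In a fit of all groups with replicate number as block, the same difference had an adjusted p of 0.0075. The replicate numbers of A and AB qualified as pairs, but those of other groups in that fit, such as SL and DN, did not. That p-value thus does not rest on the pairing of A and AB alone. With AB and B from replicates 1 and 2 alone, AB minus A was 0.93 (adjusted p = 0.0354). The authors' deposited table gives A minus AB as -0.60 with q = 0.0237. Neighbours in the order AB, B, A and DN did not pass, with AB minus B at 0.34 (95% interval -0.26 to 0.93), B minus A at 0.27 (-0.33 to 0.87) and A minus DN at 0.23 (-0.37 to 0.83).

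**Figure D3:**
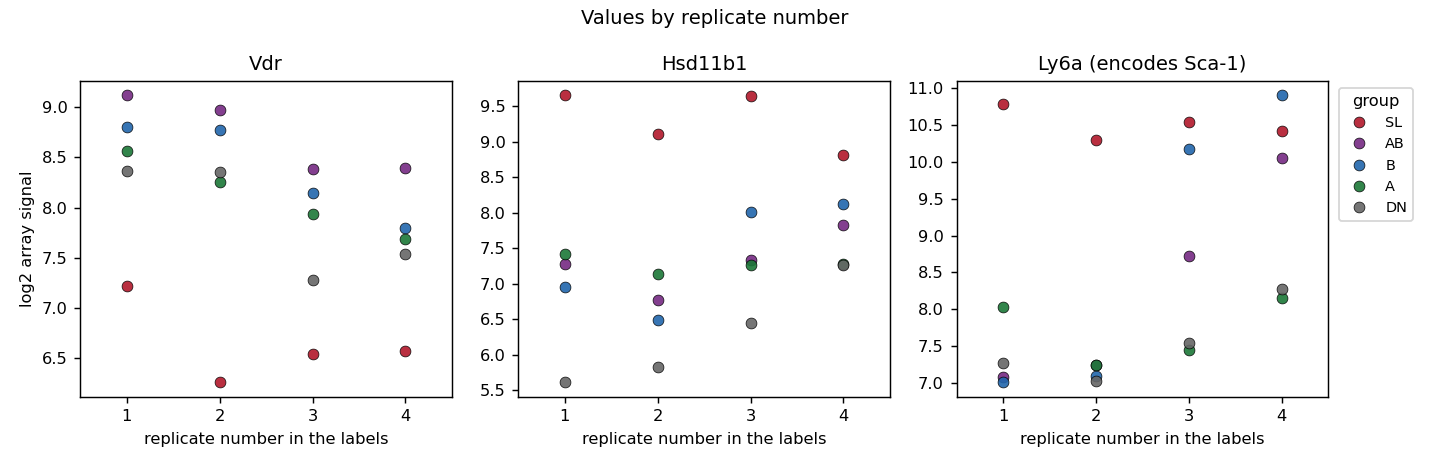
Log2 array signal (vertical axes) of Vdr, Hsd11b1 and Ly6a by replicate number (horizontal axes), coloured by group. Vdr is higher in replicates 1 and 2 than in 3 and 4 of AB, B, A and DN, and Ly6a exceeds 10 in every SL array and in B replicates 3 and 4 and AB replicate 4.

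Of 18 other genes of vitamin D metabolism and action, 9 were measured and 5 passed the F test. In SL against DN Rxrb, Rxrg and Cyp27a1 were higher and Spp1 was lower. Spp1, which encodes osteopontin and is a known target of the vitamin D receptor, averaged 11.32 in SL against 12.19 in DN (-0.87, adjusted p = 2.16e-06) and was lower in SL than in AB, with a difference of -1.10 (adjusted p = 1.45e-06). Spp1 had been listed as a mature osteoblast gene too. Cyp27a1, a mitochondrial sterol hydroxylase able to hydroxylate vitamin D, moved the other way, since SL exceeded DN by 1.68 (adjusted p = 4.34e-07) and AB by 0.78 (adjusted p = 0.0103). Rxrb encodes a partner with which the vitamin D and thyroid hormone receptors bind DNA, and it was higher than in DN by 0.57 in SL (adjusted p = 0.000684), 0.79 in AB (adjusted p = 2.25e-05) and 0.78 in B (adjusted p = 2.93e-05). Rxrg was named after its value was seen.

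Pth1r (chromosome 9, 110722085 to 110747145) encodes the parathyroid hormone receptor, and it was the surface receptor that was lower in SL, AB and B than in A and DN. Of its 3 RefSeq starts the most downstream has the window at chr9:110742611-110742860, minus strand of GRCm38.p6, shown here for comparison with that of Vdr, again with GC boxes in capitals.
Pth1r: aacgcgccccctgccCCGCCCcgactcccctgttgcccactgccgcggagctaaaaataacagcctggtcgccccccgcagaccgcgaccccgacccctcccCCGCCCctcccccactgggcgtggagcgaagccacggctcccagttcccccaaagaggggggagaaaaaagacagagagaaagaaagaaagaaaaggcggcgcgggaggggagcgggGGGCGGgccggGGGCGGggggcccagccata
This window held 4 GGGCGG matches, 22 CpG and 70.4% GC. The windows of the other Pth1r starts held fewer. The one at chr9:110743687-110743936 had 1 match and 16 CpG, and the one at chr9:110747146-110747395 had 0 matches and 3 CpG. None of the 9 windows of the 5 members in the RefSeq table (Esr1, Ghr, Hsd11b1, Pth1r and Vdr) held TGTGGT on either strand.

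Pth1r read 11.11, 11.23, 10.95 and 11.25 in SL, against 12.35, 12.44, 12.32 and 12.25 in DN. The 2 sets were a full log2 unit apart at their nearest arrays. The SL mean of 11.13 ± 0.14 was below the DN mean of 12.34 ± 0.08 by a difference of -1.21 ± 0.11 (adjusted p = 4.21e-08), 2.31-fold. AB read 11.81, 11.70, 11.83 and 11.51 and B read 11.81, 11.80, 11.88 and 11.33, both with a mean of 11.71, and A read 12.07, 12.30, 12.14 and 12.09 with a mean of 12.15 ± 0.10. The levels thus ran in 3 steps, with SL lowest, AB and B in the middle and A and DN highest. AB was below DN with a difference of -0.63 ± 0.11 (adjusted p = 0.000126), and B was below DN with a difference of the same -0.63 ± 0.11 (adjusted p = 0.000123). AB and B were each below A with a difference of -0.44 ± 0.11 (adjusted p = 0.00538 and 0.00545). SL minus AB was -0.58 ± 0.11 (adjusted p = 0.00187), SL minus B -0.57 ± 0.11 (adjusted p = 0.00188) and SL minus A -1.01 ± 0.11 (adjusted p = 1.06e-06). Within steps, AB minus B was 0.01 (95% interval -0.23 to 0.24) and A minus DN was -0.19 (-0.43 to 0.04, adjusted p = 0.434). The 8 calls of Pth1r passed in every setting run. The chondrocyte list, with 15 of 17 genes measured, scored -1.09 to -0.82 in SL, -1.75 to -0.81 in AB, -1.20 to 0.02 in B, 1.11 to 1.33 in A and 1.33 to 1.67 in DN. The chondrocyte list thus split SL, AB and B from A and DN, as Pth1r did and as Ghr and Thra did below. The mature osteoblast list was lowest in SL, at -0.90 to -0.78, as Pth1r was, though 3 of its genes were higher in SL than in DN. The part of either list in the Pth1r result was not tested.

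Of 34 other genes of PTH and cyclic AMP signalling, 28 were measured and 18 passed the F test, which 50.6% of all genes did. In SL against DN 6 were higher and 7 lower, and in AB against DN 9 were higher and 8 lower, with list medians of -0.06 and 0.03 beside 0.01 and 0.04 for all genes. The 3 orphan nuclear receptors Nr4a1, Nr4a2 and Nr4a3, known as early targets of PTH in osteoblasts, were each lower in SL, AB and B than in DN and than in A. Rgs2, which encodes a regulator of G protein signalling and is induced by PTH in osteoblasts, was instead higher than in DN by 1.60 in B (adjusted p = 6.34e-07) and 1.12 in AB (adjusted p = 4.55e-05), and differed by -0.19 in SL (adjusted p = 0.425). Nr4a2 was lower than in DN, with differences of -0.99 in SL (adjusted p = 9.84e-07), -1.25 in AB (adjusted p = 4.3e-08) and -1.28 in B (adjusted p = 4.06e-08). Pde4b, a phosphodiesterase that breaks down cyclic AMP, differed from DN by -1.74 in SL (adjusted p = 2.71e-07) and -2.09 in AB (adjusted p = 1.99e-08). Adcy7, an adenylyl cyclase that makes cyclic AMP, went the other way by 1.64 in SL (adjusted p = 1.69e-08) and 1.61 in AB (adjusted p = 1.76e-08). Pthlh, which encodes the ligand PTHrP, was higher in SL than in each other group, by 0.95 against DN (adjusted p = 0.00959) and 1.05 against AB (adjusted p = 0.02). Pthlh, Rgs2, Nr4a1 and Nr4a3 were named after their values were seen.

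Esr1 (chromosome 10, 4611593 to 5005614) encodes estrogen receptor alpha and was high in AB and SL. It read 8.78, 8.87, 8.71 and 8.48 in AB, against 7.82, 7.80, 7.81 and 8.02 in DN. All AB arrays lay above all arrays of B, A and DN. The AB mean of 8.71 ± 0.16 exceeded the DN mean of 7.86 ± 0.10 by 0.85 ± 0.13 (adjusted p = 2.15e-05), 1.8-fold. SL read 8.64, 8.40, 8.42 and 8.38 and exceeded DN by 0.60 ± 0.13 (adjusted p = 0.000881) and A by 0.53 ± 0.13 (adjusted p = 0.00372). B read 7.77, 7.86, 8.00 and 8.36, and A read 7.99, 8.16, 7.59 and 7.97. AB exceeded A by 0.78 ± 0.13 (adjusted p = 9.31e-05) and B by 0.71 ± 0.13 (adjusted p = 0.00514), and SL exceeded B by 0.46 ± 0.13 (adjusted p = 0.0227). The order was thus AB and SL, then B, A and DN. SL minus AB was -0.25 (95% interval -0.52 to 0.02, adjusted p = 0.317), and B, A and DN did not differ detectably, with B minus DN at 0.14 (-0.14 to 0.41). In a fit of the pair alone AB minus B did not pass (adjusted p = 0.0618). SL minus B failed without B replicate 1, B replicate 2 or SL replicate 1 (0.38 to 0.41, adjusted p 0.0714 to 0.0938).

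The second Esr1 probe set called the same 6 pairs with larger differences, 1.48 ± 0.21 for AB minus DN (adjusted p = 7.6e-06), 1.07 ± 0.21 for SL minus DN (adjusted p = 0.000316) and 1.21 ± 0.21 for AB minus B (adjusted p = 0.00287). AB was the group gated for both PDGF receptors, though the Pdgfra means of B and A differed by only 0.02 (adjusted p = 0.948), and the difference between AB and A was set against that between B and DN. None of the 8 genes passed this interaction, against 0.668% of all genes. Before adjustment Esr1 and Hsd11b1 were under 0.05 in limma's fit, and the share of all genes under 0.05 was not counted. The interaction was 0.64 ± 0.18 for Esr1 (adjusted p = 0.129) and -1.08 ± 0.50 for Hsd11b1 (adjusted p = 0.399). That of Esr1 changed with the setting. It passed with the mean of both probe sets (0.76, adjusted p = 0.0449), with AB and B from replicates 1 and 2 alone (0.94, adjusted p = 0.0291) and without B replicate 4 (0.76, adjusted p = 0.0349), the B array with the highest Ly6a.

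Of 21 other estrogen genes 10 were measured and 5 passed the F test. Against DN, Nrip1, a corepressor of the receptor, was higher by 0.48 in SL (adjusted p = 0.000641) and 0.35 in AB (adjusted p = 0.00824), and Ncoa3, a coactivator, was lower, with differences of -0.86 in SL (adjusted p = 1.17e-05) and -0.95 in AB (adjusted p = 3.24e-06). Hsd17b12, a reductase of fatty acid elongation that can also act on estrone, was lower than in DN, with differences of -0.40 in SL (adjusted p = 0.0292) and -0.58 in AB (adjusted p = 0.00227).

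Ghr (chromosome 15, 3317760 to 3583492) encodes the growth hormone receptor and was highest in AB. It read 9.91, 10.33, 10.20 and 9.71 in AB, against 8.72, 8.73, 9.03 and 9.05 in DN, with no overlap. The AB mean of 10.04 ± 0.28 exceeded the DN mean of 8.88 ± 0.18 by 1.16 ± 0.13 (adjusted p = 2.59e-07), 2.23-fold. B read 9.69, 9.75, 9.81 and 9.60 and exceeded DN by 0.83 ± 0.13 (adjusted p = 1.99e-05). SL read 9.73, 9.54, 9.43 and 9.47 and exceeded DN by 0.66 ± 0.13 (adjusted p = 0.000235). A read 9.28, 9.15, 9.23 and 8.94, close to DN, and A minus DN was 0.27 (95% interval 0.01 to 0.53, adjusted p = 0.302). AB exceeded A by 0.89 ± 0.13 (adjusted p = 1.49e-05) and B exceeded A by 0.56 ± 0.13 (adjusted p = 0.00186). In the order AB, B, SL, A and DN, AB minus B was 0.33 (0.06 to 0.59, adjusted p = 0.323) and SL minus B was -0.17 (-0.43 to 0.09), so these neighbours did not pass. SL was below AB with a difference of -0.49 ± 0.13 (adjusted p = 0.0142) with overlapping arrays, a call lost without AB replicate 2, AB replicate 3 or SL replicate 3 (-0.46 to -0.40, adjusted p 0.0528 to 0.0667). SL exceeded A by 0.39 ± 0.13 (adjusted p = 0.0211), a call lost without A replicate 4 or SL replicate 1 (0.32 and 0.33, adjusted p 0.0776 and 0.0742) and with the neutrophil covariate (0.30, adjusted p = 0.0858). All 3 probe sets of Ghr called the same 7 pairs in the same directions, with AB minus DN at 1.47 ± 0.16 and 1.38 ± 0.13 in the other two. The marrow stromal reticular list, with 16 of 17 genes measured, scored -0.45 to -0.02 in SL, 1.29 to 1.79 in AB, 0.19 to 0.57 in B, -0.50 to -0.39 in A and -1.42 to -1.19 in DN. The chondrocyte list split SL, AB and B from A and DN, as Ghr did. The part of either list in the Ghr result was not tested.

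Of 17 other growth hormone genes 14 were measured and 10 passed the F test. Their directions were mixed. Against DN, SL had 4 higher (Igf1, Igfbp3, Sh2b1 and Lepr) and 4 lower (Jak2, Socs2, Socs3 and Ptpn1). Igf1, the growth factor through which much of growth hormone's action on bone passes, was higher than in DN by 2.62 in SL (adjusted p = 2.15e-11), 2.82 in AB (adjusted p = 9.37e-12), 2.25 in B (adjusted p = 3.71e-10) and 1.09 in A (adjusted p = 9.76e-05). Igfbp3, which carries IGF1, was higher in AB than in DN by 3.49 (adjusted p = 3.59e-12). Lepr, the leptin receptor of the same cytokine receptor class, exceeded DN by 3.54 in AB (adjusted p = 2.42e-08) and by 1.26 in SL (adjusted p = 0.00329), and was lower in SL than in AB, with a difference of -2.28 (adjusted p = 8.11e-05). Lepr had been listed as a marrow stromal reticular gene too. Jak2, the kinase bound to Ghr, was lower than in DN, with differences of -0.87 in SL (adjusted p = 1.36e-06) and -0.71 in AB (adjusted p = 1.53e-05). Socs2, a feedback inhibitor of the pathway and a known target of growth hormone, was lower than in DN, with differences of -1.12 in SL (adjusted p = 8.05e-06) and -1.02 in AB (adjusted p = 2.36e-05). Ghr thus was higher in SL and AB than in DN while Jak2 and Socs2 were lower there. Stat5b went with Ghr in AB, where its mean of 8.66 was called higher than in DN (8.19), A (8.07) and B (8.29). In SL Stat5b averaged 8.24 and was not called against DN. Against DN, AB had 5 genes of this list higher and 4 lower. Jak2, Stat5b, Socs2, Socs3, Sh2b1 and Ptpn1 were named after their values were seen.

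Thra (chromosome 11, 98740638 to 98769006) encodes thyroid hormone receptor alpha and was higher in SL, AB and B than in A and DN. It read 9.47, 9.45, 9.55 and 9.37 in SL, 9.62, 9.80, 9.47 and 9.36 in AB and 9.50, 9.63, 9.44 and 9.35 in B, against 8.93, 9.14, 9.02 and 9.10 in DN. Every SL, AB and B array lay above every DN array. The differences from DN were 0.41 ± 0.10 in SL (adjusted p = 0.00181), 0.52 ± 0.10 in AB (adjusted p = 0.000214) and 0.43 ± 0.10 in B (adjusted p = 0.00124). A read 9.04, 9.30, 9.06 and 9.05, so its arrays lay among or just above those of DN (0.07, 95% interval -0.14 to 0.27). SL, AB and B exceeded A by 0.35 ± 0.10 (adjusted p = 0.0103), 0.45 ± 0.10 (adjusted p = 0.00129) and 0.37 ± 0.10 (adjusted p = 0.00735). SL, AB and B themselves were within 0.10 log2 units, with AB minus B at 0.08 (-0.12 to 0.29) and SL minus AB at -0.10 (-0.31 to 0.10). The second Thra probe set called the same 6 pairs, with 0.73 ± 0.15 for SL minus DN (adjusted p = 0.000416), 0.66 ± 0.15 for AB minus DN (adjusted p = 0.000934) and 0.58 ± 0.15 for B minus DN (adjusted p = 0.00316). These calls passed in every setting run. The chondrocyte list split the same groups, and its part in the Thra result was not tested. Thra overlaps Nr1d1 in RefSeq, as Pth1r overlaps Gm35775, Vdr overlaps Gm33690 and Gm52171, and Ghr overlaps Gm41254. The strand of the probes is not stated, so signal of an overlapping gene cannot be told apart for any of these members.

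**Figure D4:**
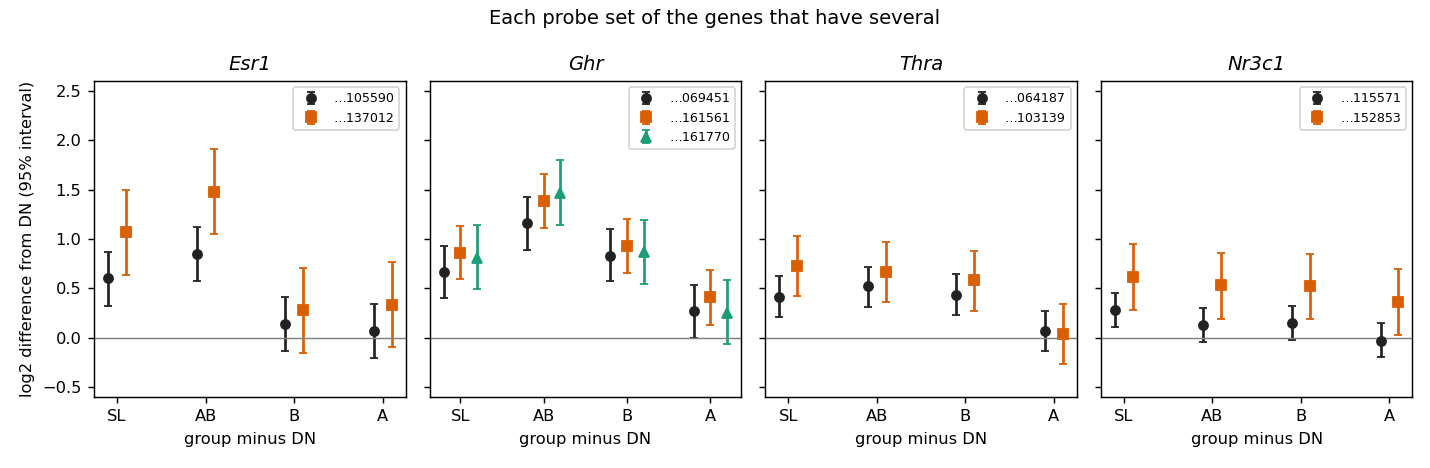
Log2 difference from DN (vertical axis, with 95% intervals of limma's fit) for SL, AB, B and A (horizontal axes), drawn separately for each probe set of Esr1, Ghr, Thra and Nr3c1, which have several. The probe sets of Esr1, Ghr and Thra differ in size and in part in the order of groups, with AB at 0.85 and 1.48 for Esr1, while those of Nr3c1 differ in AB, at 0.13 and 0.53.

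Of 19 other thyroid hormone genes 12 were measured and 5 passed the F test. Dio2, the deiodinase that makes active thyroid hormone inside cells, was highest in AB, which exceeded DN by 1.04 (adjusted p = 7.67e-05), A by 0.82 (adjusted p = 0.00125) and B by 0.85 (adjusted p = 0.0143). It was also higher in SL than in DN, by 0.79 (adjusted p = 0.00117), whereas B minus DN was 0.19 (adjusted p = 0.407). Dio2 and Thra thus were both high in SL and AB, and B had the Thra difference without a detectable one in Dio2. Slc16a10, a transporter of aromatic amino acids and thyroid hormone, was highest in B, which exceeded DN by 0.86 (adjusted p = 0.000817), and was lower in SL than in B, with a difference of -0.74 (adjusted p = 0.00997).

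Insr (chromosome 8, 3122061 to 3279617) encodes the insulin receptor and passed in none of the 10 pairs, with no unadjusted limma p under 0.05 among them. It read 7.11, 7.23, 7.43 and 7.16 in SL, 7.13, 7.35, 7.27 and 7.04 in AB, 7.15, 7.36, 7.09 and 7.09 in B, 7.25, 7.39, 7.17 and 7.24 in A and 7.16, 7.24, 7.51 and 7.42 in DN, with overlap between all groups. Its largest difference was B minus DN at -0.16, with a 95% interval of -0.37 to 0.05 (adjusted p = 0.207), so decreases of up to that lower bound are not excluded. Of 32 other insulin genes 29 were measured and 13 passed the F test. In SL against DN 4 were higher and 9 lower, and in AB against DN 5 were higher and 8 lower. The list medians were -0.12 and 0.03, beside 0.01 and 0.04 for all genes. Slc2a1, the glucose transporter GLUT1, was lower than in DN, with differences of -1.53 in SL (adjusted p = 6.64e-07) and -1.90 in AB (adjusted p = 3.39e-08). Grb14, an inhibitor that binds the activated insulin receptor, was lower than in DN, with differences of -2.54 in SL (adjusted p = 3.96e-08) and -1.72 in AB (adjusted p = 5.67e-06). Irs1 and Irs2, the main substrates of the receptor, differed from DN in SL by -0.35 (adjusted p = 0.0107) and -0.55 (adjusted p = 0.018), and were named after their values were seen.

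A further list of 41 hormone receptors gave 14 measured genes, of which 8 passed the F test. In SL against DN Lepr and Ptger1 were among those higher, and the adiponectin receptors Adipor1 and Adipor2 were lower. Ptger1, a prostaglandin E receptor, stood out in SL, by 1.07 over DN (adjusted p = 1.68e-06), 0.98 over A (adjusted p = 9.87e-06), 0.75 over B (adjusted p = 0.000645) and 0.81 over AB (adjusted p = 0.000389). Like Hsd11b1 it thus was higher in SL than in each other group.

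The genes most like each member were ranked by Pearson r over the 20 arrays, as a description, since arrays of a group share their cells and any gene that separates the groups will correlate. Hsd11b1 was most like Celf2 (r = 0.95), Hspb8 (0.94) and Entpd2 (0.94). Nr3c1 was most like Dram1 (0.88), Pla1a (0.86) and Tmod2 (0.85), and Vdr was most like Unc5b (0.95), Spp1 (0.92) and Trp53inp2 (0.91). Spp1 thus stood both in the vitamin D list and among the genes nearest to Vdr. Pth1r was most like Fgfr3, Sort1 and Cyr61 (0.95 each), where Fgfr3 encodes an FGF receptor of growth plate cartilage. Hfe and Fmo2 (0.88 each) were among the genes most like Esr1. Ghr was most like St5 (0.96), Igsf3 and Gas6 (0.95 each), and Gas6 is a member of the marrow stromal list. Thra was most like Ndnf (0.96), Hs2st1 and Prmt2 (0.94 each). For Insr, which passed in no pair, the highest were Zfp93 (0.79), Ubfd1 (0.78) and Golgb1 (0.77).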

How the data were processed

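Per the labels, biotin-labelled total RNA of sorted mouse bone cells was hybridized to expression arrays, 20 in 5 groups of 4. The authors' deposited series table holds normalized log2 signal for 24539 probe sets, with array medians between 6.39 and 6.46. For 12440 of them the authors' deposited filtered table gives linear intensity, and its log2 lay within 0.0075 of the series table. How the signal was normalized and scanned, and any detection calls, were not given in the sources used here. Comparison tables deposited by the authors for 5 pairs hold log2 differences, p-values and q-values per the file headers, and were used only where named.

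The log2 values of the filtered probe sets were analysed, without 83 that had no symbol. The probe set with the highest mean stood for each of 2431 genes with several, beside 6698 genes with 1. All 9129 genes were fitted in R 4.3.3 with limma 3.58.1, with a mean per group, 15 residual and 4.34 prior degrees of freedom, two-sided tests and Benjamini-Hochberg adjustment per contrast at 0.05. The fit was also tested on simulated data. The members, gene lists, named genes (the 3 of each list with the largest F past the threshold, and the 3 most like each member) and alternatives were chosen with earlier results of these data known. The number of arrays limits the precision. Arrays of one group correlated at r = 0.951 to 0.983 across genes, and the median residual SD was 0.185 log2 units. Deviations from the group mean correlated above 0.1 for every replicate number only between A and AB (0.19 to 0.40) and between B and AB (0.17 to 0.42). Only in these pairs of groups did the numbers qualify as pairs, and the main fit did not use them. The block was an alternative fitted over all groups, so it also included groups whose numbers did not qualify with each other. Other alternatives were the mean of all probe sets, all probe sets of the series table, quantile normalization, only the compared groups, AB and B from replicates 1 and 2, the neutrophil score as a covariate, and each array left out. Promoter windows came from a RefSeq table of GRCm38.p6. Results of 2 genes that met the rule for named genes are not reported here.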

Additional observations from a re-analysis of the deposited data

Results flagged for a closer look

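A gap of 1 array from the other 3 of its group, above Dixon's 95% critical value, was found 4 times among 65 combinations of a probe set of the 8 genes and a group. Chance alone gives such a gap in about 1 in 20 groups. Esr1 read 8.64 in SL replicate 1, against 8.38, 8.40 and 8.42 in the other SL arrays (ratio of gap to range 0.867). Esr1 read 8.02 in DN replicate 4, against 7.80, 7.81 and 7.82 in the other DN arrays (ratio 0.939). Pth1r read 11.33 in B replicate 4, against 11.80, 11.81 and 11.88 in the other B arrays (ratio 0.857), and this array also had the highest Ly6a of B (10.90) and the highest neutrophil score (1.25). Thra read 9.30 in A replicate 2, against 9.04, 9.05 and 9.06 in the other A arrays (ratio 0.912). The Esr1 difference between SL and B passed with SL replicate 1 (adjusted p = 0.0227 in limma) and not without it (0.40, adjusted p = 0.0808). No cause of these gaps was tested.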

How the results depend on the processing

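Of 40 differences of the 8 genes that passed, 33 passed under all 27 other settings and 34 in all 20 fits that left out 1 array, and no called difference changed sign. With the replicate number as a block (replicate block), all genes called numbered 546 instead of 322 for A against DN, 321 instead of 139 for AB against B and 360 instead of 61 for the interaction. Among the 8 genes the block added Vdr in AB against A (adjusted p = 0.0075) and in B against DN (adjusted p = 0.018). It changed no other call. Only the first of these is a pair whose numbers qualify. The block was fitted over all groups, so neither p-value rests on qualifying pairs alone. With only the compared groups in the fit, 167 genes were called for A against DN and 70 for AB against B, where the count of members was 0 instead of 1. Esr1 in SL against B (0.46, adjusted p = 0.0507), Ghr in SL against AB (-0.49, adjusted p = 0.0509) and Hsd11b1 in B against DN (1.11, adjusted p = 0.0582) did not pass there either. For the interaction the neutrophil covariate gave 33 genes, and 1 member (Esr1) passed with the mean of all probe sets and with AB and B from replicates 1 and 2. Vdr in B against DN passed with those replicates set against all 4 DN arrays (0.90, adjusted p = 0.0301) and with the covariate (0.94, adjusted p = 0.0409). Leaving out 1 array gave 179 to 341 genes for A against DN (196 without A replicate 1 and 179 without A replicate 4), 79 to 194 for AB against B (79 without AB replicate 2) and 24 to 152 for the interaction. There the counts were 24 without A replicate 1, 34 without A replicate 4, 36 without B replicate 1, 39 without B replicate 2, 31 without AB replicate 2 and 152 without AB replicate 4. Members called ranged from 0 to 1 for A against DN (Hsd11b1 without DN replicate 4) and from 0 to 1 for the interaction (Esr1 without B replicate 4). The cause was not tested. Signal near background may compress differences of dim probe sets, and no detection call was available to show which.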
